A study of Rattus norvegicus with 9 samples.

Results

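Ankyrin-repeat and SOCS-box proteins (Asb) and kelch-like proteins (Klhl) are substrate adaptors of cullin ubiquitin ligases, and their transcripts were followed in pubococcygeus muscle, one of the striated muscles that close the pelvis from below, taken from female Sprague-Dawley rats. Members were taken by symbol alone: every row named Asb or Klhl followed by a number, and, where a symbol had more than 1 row, the row with the highest mean count. This gave 53 genes of 30518 rows, 17 Asb and 36 Klhl, of which 50 passed the filter on low counts. The other 3, Asb17, Klhl1 and Klhl14, had 0 counts in all 9 libraries, where 3 counts would be 0.0203 to 0.059 CPM (counts scaled to a common library total).

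The study placed 24 rats in 3 groups of 8, and 3 libraries per group were analysed. Blank rats had no operation and no treatment. SUI rats, a model of stress urinary incontinence, lost both ovaries, then had an 8 Fr balloon with 3 mL of saline held in the vagina under a 120 g weight for 4 h, and received nothing further. Stimulated rats had the same operation and distension and, from 1 week later, transvaginal pelvic floor electrical stimulation (PFES) at 50 Hz, 20 mA and 200 µs for 30 min a day, 5 days a week, for 2 weeks. None of the 3 groups had an operation without ovary removal and distension, and none had the probe without current, so ovary loss, distension and surgery cannot be told apart, nor can current and handling. The SUI libraries carry the word sham in their library names, while their titles name the model, so the groups here follow the titles.

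A ligase of this kind is built on a cullin, a long scaffold protein. Asb proteins hold their substrate with ankyrin repeats and dock through the SOCS box to elongin B, elongin C and Cul5 with the RING protein Rnf7, whereas most Klhl proteins hold theirs with a kelch propeller and dock through the BTB domain to Cul3 with the RING protein Rbx1. In striated muscle the best known members are Asb2, which directs filamins to the proteasome, and Klhl40 and Klhl41, which are mutated in nemaline myopathy and keep thin-filament proteins stable.

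Total counts ran from 50833480 in Blank 1 to 147650284 in stimulated replicate 1 (median 110699836). Blank 1 stood apart: mitochondrial transcripts made up 32.9% of its counts, beside 13.4% to 17.7% in the other 8. Its correlation with each other library had a median of 0.92. SUI 1 came next at 0.949, and the rest lay between 0.954 and 0.968. Skeletal muscle markers were abundant in every library, with 9 of 9 detected and a summed level of 108981 CPM in SUI 1 and 149910 to 209659 CPM in the other 8. Of the 50 members tested, 20 had their lowest level in Blank 1 (40%, against 33.2% of all genes tested) and 8 their highest (16%, against 23.95%). Beside several log2 fold changes below, the value without 1 of these or another library is given.

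Promoter sequences are shown for 6 members. Klhl41 and Klhl40 are the nemaline myopathy genes. The windows of Asb14, Asb16 and Asb18 hold the letters CTATTTAT, as does that of Asb4, which is not shown. Klhl29 had the smallest p of all members after stimulation. Each line gives the 250 bases before the transcription start, 5′ to 3′ on the gene's strand, from RefSeq on GRCr8. Capitals mark CAGCTG, an E-box form bound by myogenic factors, and CTATTTAT, a form of the letters bound by MEF2 factors. The windows are chr3:74841868-74842117 (plus strand) for Klhl41, chr8:130318543-130318792 (plus) for Klhl40, chr16:2102126-2102375 (plus) for Asb14, chr10:87725878-87726127 (plus) for Asb16, chr9:98043471-98043720 (minus) for Asb18 and chr6:34110056-34110305 (minus) for Klhl29.
Klhl41: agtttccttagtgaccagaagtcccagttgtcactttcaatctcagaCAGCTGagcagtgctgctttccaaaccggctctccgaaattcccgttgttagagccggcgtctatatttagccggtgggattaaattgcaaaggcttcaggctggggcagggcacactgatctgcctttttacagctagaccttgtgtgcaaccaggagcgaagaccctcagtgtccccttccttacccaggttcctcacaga
Klhl40: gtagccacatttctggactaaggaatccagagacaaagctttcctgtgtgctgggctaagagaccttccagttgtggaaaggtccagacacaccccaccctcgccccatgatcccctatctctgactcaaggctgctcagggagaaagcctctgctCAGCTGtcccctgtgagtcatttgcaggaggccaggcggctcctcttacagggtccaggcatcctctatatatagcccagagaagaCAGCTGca
Asb14: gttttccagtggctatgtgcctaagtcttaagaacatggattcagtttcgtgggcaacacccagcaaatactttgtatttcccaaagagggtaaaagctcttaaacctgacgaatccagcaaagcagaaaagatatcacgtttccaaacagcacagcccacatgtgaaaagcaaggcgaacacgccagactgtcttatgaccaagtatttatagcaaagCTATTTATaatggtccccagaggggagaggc
Asb16: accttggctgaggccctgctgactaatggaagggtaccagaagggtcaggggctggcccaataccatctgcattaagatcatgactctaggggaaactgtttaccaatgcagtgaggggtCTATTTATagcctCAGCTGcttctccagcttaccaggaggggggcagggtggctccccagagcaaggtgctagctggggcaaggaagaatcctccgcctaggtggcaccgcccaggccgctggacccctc
Asb18: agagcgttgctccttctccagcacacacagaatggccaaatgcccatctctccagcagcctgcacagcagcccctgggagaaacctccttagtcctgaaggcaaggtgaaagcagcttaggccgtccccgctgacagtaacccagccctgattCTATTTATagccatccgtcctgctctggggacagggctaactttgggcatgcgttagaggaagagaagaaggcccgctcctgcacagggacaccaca
Klhl29: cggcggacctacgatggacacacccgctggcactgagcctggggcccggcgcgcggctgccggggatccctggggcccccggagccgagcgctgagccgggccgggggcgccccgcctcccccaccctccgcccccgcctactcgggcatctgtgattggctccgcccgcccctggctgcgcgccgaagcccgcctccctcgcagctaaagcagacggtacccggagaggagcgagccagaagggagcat

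A list of 19 members with known muscle expression (Asb2, Asb4, Asb5, Asb8, Asb10, Asb11, Asb12, Asb14, Asb15, Asb16, Asb18, Klhl21, Klhl30, Klhl31, Klhl33, Klhl34, Klhl38, Klhl40 and Klhl41) is called the muscle group. No row is labelled Asb11, so none was analysed under that name, and the identity of the row labelled Asb9 is uncertain, as described below. The search used the full table windows, 250 bases before to 50 after the start, on both strands, in 48 members with an entry and in 33365 distinct windows of the table in all. CAGCTG, a palindrome that is also counted within the looser E-box CANNTG, stood in 10 of the 17 muscle-group windows (58.8%), in 9 of the 31 other members (29%) and in 15.1% of all windows. CTATTTAT stood in 4 of 17 muscle-group windows (23.5%), those of Asb4, Asb14, Asb16 and Asb18, in 0 of 31 others and in 0.956% of all. Besides CTATTTAT, only TTAAAAATA, given below, was searched as a form of the MEF2 letters. Other forms were neither counted nor marked, such as ctatatttag in the Klhl41 line and ctatatatag in the Klhl40 line. A window without CTATTTAT may therefore still hold MEF2-like letters. Klhl40 holds CAGCTG 94 and 8 bases before its start, Klhl41 203 bases before, and Asb16 holds it 117 bases before, next to CTATTTAT at 130. In Asb14 CTATTTAT begins 31 bases before the start and in Asb18 97 bases before. The Klhl29 window held neither and was 78.7% G and C, against a median of 54.3% in the muscle group, 60.7% in the other members and 51.7% in all windows.

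Another 5 patterns were searched. CANNTG stood in 94.1% of muscle-group windows, 77.4% of the others and 72.1% of all, and TGTTCT, letters bound by the glucocorticoid receptor, in 41.2%, 16.1% and 20.6%. TGTTTAC, bound by FoxO factors, stood in 1 of 17, 1 of 31 and 3.78% of all, and was found in Asb16 and Klhl12. TTAAAAATA and the SRF CArG box were in no member window and in 0.929% and 1.63% of all. Asb1, Asb9, Klhl1 and Klhl38 had no entry and Klhl9 was left out. A match is a description of letters, not of binding.

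**Figure D1:**
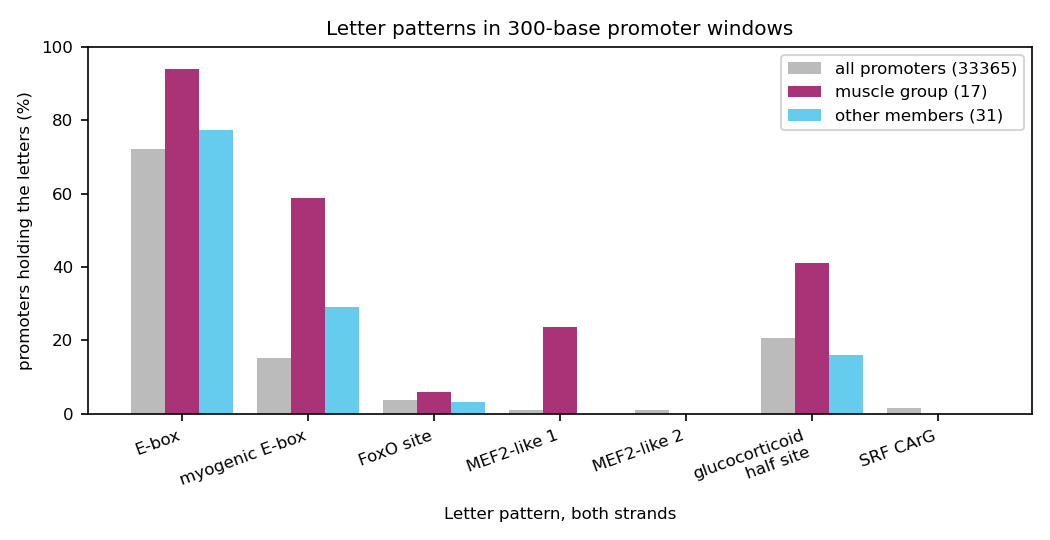
Share of promoter windows holding each letter pattern (y axis, percent) for all 33365 windows, 17 windows of the muscle group and 31 of other members. CAGCTG stands in 58.8%, 29% and 15.1% of muscle-group, other-member and all windows.

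Levels per transcript length, given as FPKM (fragments per kilobase of transcript, scaled to sequencing depth), spanned 3987-fold over the 50 tested members. A mean of at least 10 FPKM was reached by 17 members, 18 lay from 1 to 10 and 15 below 1. The sum of mean FPKM over all members was 942, of which Asb2 and Klhl41 gave 43.6%. The 18 muscle-group members with a row gave 85% of that sum and were 9 of the 10 highest members and 13 of the 17 at 10 FPKM or more. That list was set with earlier results of these data known, so these shares are a description and not a test of the list.

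Asb2 (chr6:122474756-122510854, minus strand, mRatBN7.2) was the highest member, at 117, 259 and 256 FPKM in Blank 1 to 3, 218, 323 and 243 in SUI and 207, 99.1 and 171 after stimulation. Klhl41 (chr3:54434234-54449222, plus strand) came next at 159, 227 and 288 FPKM in blank, 181, 225 and 152 in SUI and 183, 191 and 194 after stimulation. By FPKM every stimulated library lay below every SUI library for Asb2, while blank overlapped both, and for Klhl41 the stimulated libraries overlapped SUI. The mean FPKM of these neighbours in rank, 210 and 200, differed by less than the spread between libraries. The next members had mean FPKM of 75.4 (Klhl31, whose loss in mice causes a myopathy), 55.4 (the row labelled Asb9), 43.7 (Asb12), 41.0 (Klhl30), 37.0 (Klhl40), 32.5 (Klhl21, which acts on Aurora B in dividing cells), 29.8 (Asb5) and 29.3 (Asb8). From Asb12 to Asb8 the ranges over libraries overlapped between each neighbour and the next.

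Among members outside the muscle group, the row labelled Asb9 was the highest, followed by Klhl7 at 13.4, Klhl22 at 12 and Klhl24 at 11.2 mean FPKM. Asb9 binds brain creatine kinase, Klhl7 is mutated in retinal degeneration, Klhl22 acts in mitosis and in amino acid sensing, and Klhl24 is mutated in a blistering skin disease. Some members known mainly from other organs were low. Klhl10, a testis adaptor needed for sperm formation, had a mean of 0.062 FPKM, Klhl6, a B-cell adaptor, 0.121, and Klhl3, which controls WNK kinases in the kidney, 0.209. The lowest tested member was Klhl35 at 0.0528 FPKM, listed at 0 in Blank 1, SUI 2 and stimulated replicate 2.

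**Figure D2:**
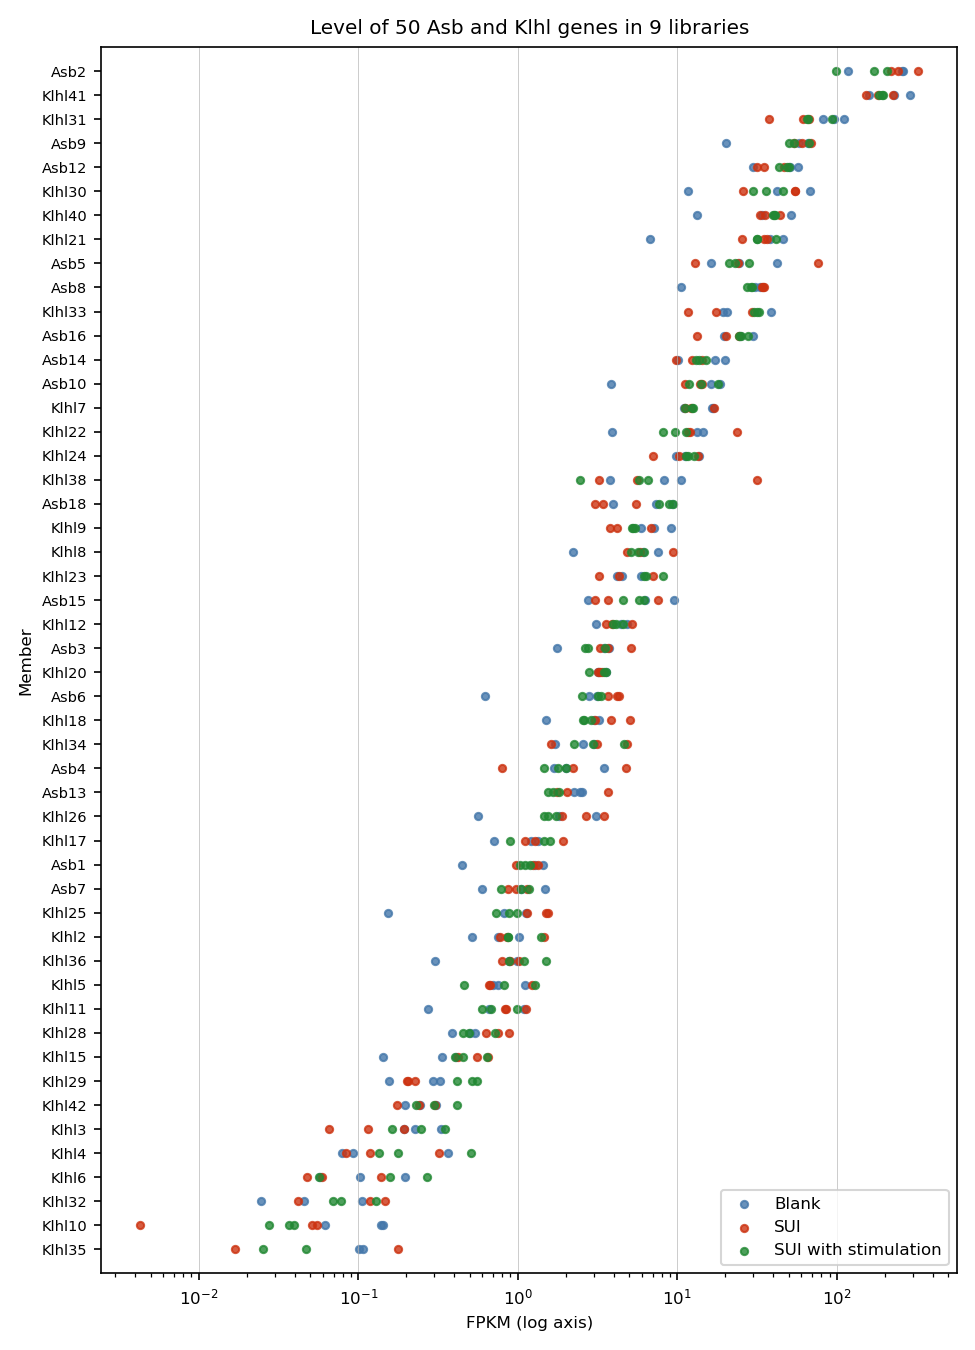
FPKM of each of the 50 tested members in each of 9 libraries (x axis, log scale), ordered by mean, with 1 point per library coloured by group. Asb2 and Klhl41 lie above the rest, and the Blank 1 point lies far left for Klhl21 (6.78 FPKM) and Klhl25 (0.153 FPKM); values of 0 are not drawn.

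The identity of a few rows is uncertain. The row labelled Klhl9 lies on chrX:113942309-114020529 (mRatBN7.2), near Slc6a14 and Wdr44, where RefSeq on GRCr8 orders Klhl13, and RefSeq places Klhl9 on another chromosome. No row is labelled Klhl13. The row labelled Asb9 shares its identifier with a second row and lies next to Piga, whereas RefSeq orders Asb11 between Asb9 and Piga. Values of these rows are given under their labels, and the row labelled Asb9 is counted outside the muscle group.

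The first comparison, SUI over blank, asks what the model did to these adaptors. With edgeR's quasi-likelihood test, 0 of 50 members passed an adjusted p of 0.05, beside 0.00% of all 16256 genes tested. At an unadjusted p under 0.05 there were 5 of 50 members (Asb14, Asb18, Klhl3, Klhl31 and the row labelled Klhl9, all lower in SUI), beside 8.18% of all genes. DESeq2 and voom with sample weights called 0 members as well, beside 176 and 0 of all 16256 genes. With these tools 7 and 9 members had an unadjusted p under 0.05, beside 11% and 12.6% of all genes. On the scale of TMM-scaled CPM, used from here on, all 3 SUI libraries lay above the 3 blank ones for 4 members (7.34% of all genes) and below them for 5 (7.77%). Both counts are near the background share of 50 genes. By FPKM 5 members lay above and 2 below, beside 9.93% and 3.96% of all genes. By library totals 3 members lay above and 3 below, beside 8.77% and 4.31% of all genes. On those 2 scales more of the whole table thus lay apart in the higher direction than in the lower. In bulk muscle, fewer cells of a type and less RNA per cell cannot be told apart.

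Klhl31 was the highest by FPKM of the members whose SUI and blank libraries did not overlap. It is encoded at chr8:78515514-78538873 (plus strand), and the kelch protein acts on filamin C. Klhl31 was at 1116, 672 and 580 CPM in Blank 1 to 3, at 216, 445 and 506 CPM in SUI 1 to 3 and at 778, 444 and 500 CPM after stimulation. Every SUI library lay below every blank library, also by FPKM and by CPM of library totals, and the stimulated libraries overlapped with SUI. The edgeR log2 fold change over blank was -1.02 ± 0.38 (SE, adjusted p = 0.552), and leaving out a library moved it between -1.25 and -0.68, the latter without Blank 1. Without both Blank 1, the highest blank library, and SUI 1, the lowest SUI library, it was -0.40. The mean over 3 libraries was 389 ± 153 CPM in SUI and 789 ± 287 in blank (SD, n = 3).

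Asb18, a little-studied muscle adaptor (chr9:90531596-90595848, minus strand), was at 6.96, 14.3 and 11 CPM in blank, 3.28, 5.23 and 8.69 in SUI and 15.1, 10.7 and 15.5 after stimulation. SUI and blank overlapped, since SUI 3 lay above Blank 1. The edgeR log2 fold change was -0.91 ± 0.38 (SE, adjusted p = 0.588), and 0 alternatives changed its sign. Asb14 (chr16:2095644-2115135, plus strand) was at 33.3, 45.5 and 39.8 CPM in blank, 26.6, 23.3 and 30.4 in SUI and 35.5, 30.7 and 37.0 after stimulation. All 3 SUI libraries lay below the other 6, with a log2 fold change of -0.56 ± 0.19 over blank. By FPKM and by library totals Asb14 overlapped between SUI and blank.

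Klhl3 was low in every library, at 0.908 to 2.20 CPM in blank, 0.329 to 0.940 in SUI and 0.892 to 1.60 after stimulation. Its log2 fold change in SUI over blank was -1.27 ± 0.51, with overlapping groups, and -0.77 without Blank 1, its highest library. The row labelled Klhl9 was at 50.7, 27.1 and 23.0 CPM in blank and 11.7, 27.2 and 17.6 in SUI. Blank 1 was the highest and SUI 1 the lowest of all 9 libraries in that row. Its log2 fold change of -0.83 ± 0.36 was -0.40 without Blank 1 and -0.16 without both Blank 1 and SUI 1.

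Klhl10 lay lower in SUI on all 3 scales, at 0.397, 0.147 and 0.336 CPM in blank and 0.00885, 0.127 and 0.144 in SUI. SUI 1 lay under the level of 3 counts for this testis adaptor, and the log2 fold change was -1.63 ± 0.88. Klhl7 was lower in SUI at 39.3 to 47.0 CPM against 54.2 to 56.8 in blank, and Klhl24 at 38.7 to 58.7 against 60.5 to 74.8. Both overlapped between the groups by FPKM and by library totals.

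Asb6, an adaptor linked to insulin receptor signalling in fat cells, was at 8.88, 11 and 11.1 CPM in SUI against 2.54, 7.84 and 7.85 in blank. The groups stayed apart on all 3 scales. Its log2 fold change was 0.75 ± 0.37, and 0.40 without Blank 1. Klhl28 was at 2.52, 2.31 and 2.89 CPM in SUI and 1.96, 1.77 and 1.93 in blank, apart on all 3 scales, with a log2 fold change of 0.45 ± 0.26.

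Klhl25, which acts on the lipid synthesis enzyme Acly and on a translation repressor, was at 5.00, 4.68 and 6.43 CPM in SUI and 0.874, 3.21 and 4.49 in blank. The 3 SUI libraries were the highest of all 9 for Klhl25 and for Klhl18, which acts with Aurora A at entry into mitosis and lay at 16.7 to 20.1 CPM in SUI against 10.9 to 15.8 in blank. Log2 fold changes were 0.90 ± 0.47 for Klhl25 and 0.41 ± 0.20 for Klhl18. The Klhl25 value was 0.49 without Blank 1 and 1.37 without Blank 3. In SUI over blank Klhl18 overlapped by FPKM and by library totals, and Klhl25 by library totals.

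**Figure D3:**
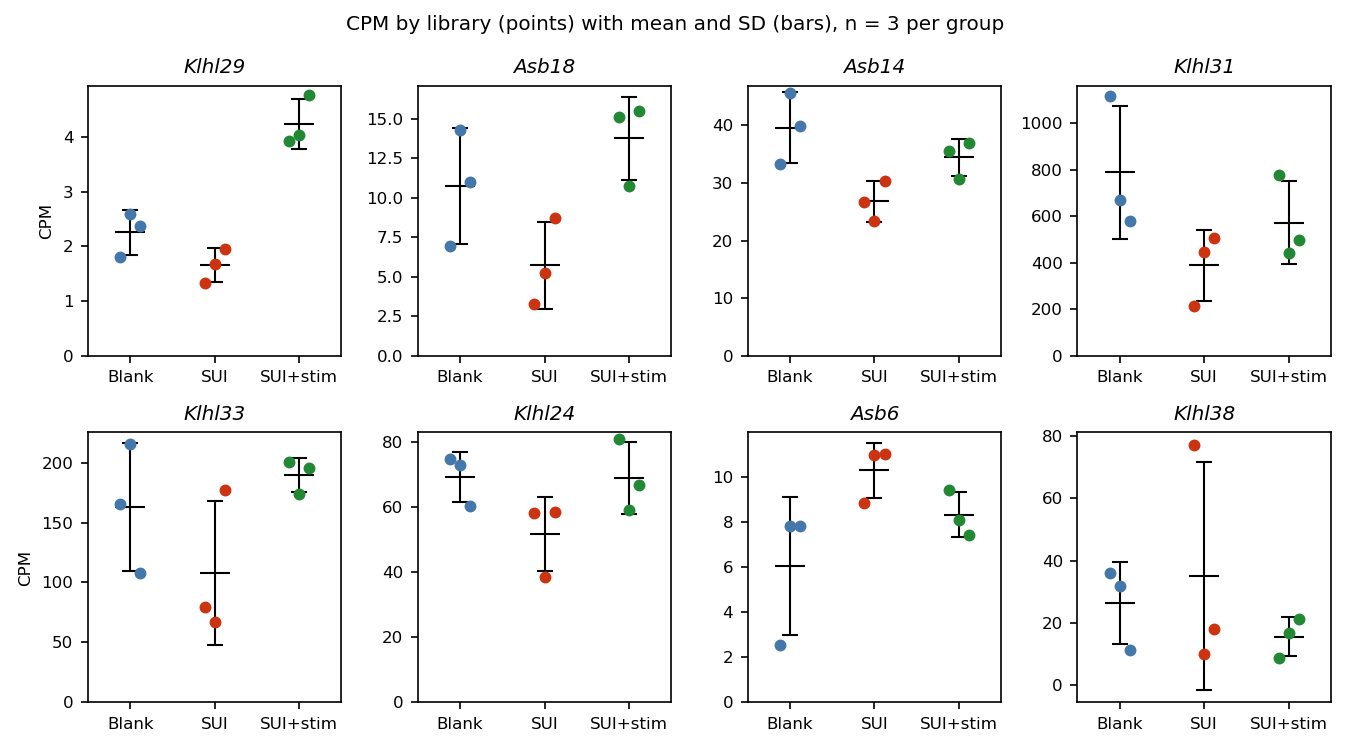
TMM-scaled CPM (y axis, a scale of its own in each panel) of 8 members by group, with 1 point per library, the mean and the SD (n = 3). The stimulated libraries lie above all others for Klhl29 (3.93 to 4.76 CPM), the SUI libraries below all others for Asb14 and Klhl24, and SUI 1 far above the rest for Klhl38 (77.1 CPM).

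The muscle group as a whole had 8 of 18 members with a higher and 10 with a lower mean in SUI, with a median log2 fold change of -0.12, against -0.05 for the other 32 members and 0.01 for all genes tested. Leaving out 1 library moved the muscle-group median from -0.35 (without Blank 1) to 0.04 (without Blank 2), so its sign rested on 1 library as well as on the scaling. With library totals alone the median of all genes moved to 0.19, that of the muscle group to 0.05 and that of all 50 members to 0.06. SUI 1 held the lowest level of 7 of the 18 muscle-group members (38.9%, against 16.2% of all genes tested). It held the highest of 3 (16.7%, against 16.4%). It lay below both other SUI libraries for 10 of 18 and above both for 3. Of all 50 members tested, it lay below both for 20 and above both for 15. The share over all genes was not counted for this placement. Skeletal muscle markers were also lowest in SUI 1, and their part in these values was not tested.

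SUI 1 was the highest library for 7 of the 50 members (14%, against 16.4% of all genes tested). Of these, Klhl38, Asb5 and Asb4 belong to the muscle group. Klhl38 (chr7:89855148-89864276) lies next to Fbxo32, which encodes the atrophy ligase atrogin-1, in the order of the tables. Klhl38 was at 35.8, 31.7 and 11.5 CPM in blank, 77.1, 10.0 and 18.1 in SUI and 8.73, 16.9 and 21.3 after stimulation. Fbxo32 was at 87.5, 51.4 and 33.7 CPM in blank, 583, 74.8 and 138 in SUI and 25.0, 14.9 and 22.6 after stimulation. SUI 1 was the highest library for both, and Fbxo32 had every stimulated library below every SUI library while Klhl38 did not. Over the 9 libraries their log2 CPM had a Pearson correlation of 0.672, a description that shares the library with the highest value of both.

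The direction for Klhl38 turned without SUI 1. Its log2 fold change was 0.42 ± 0.71 in SUI over blank and -1.17 ± 0.71 in stimulated over SUI, and without SUI 1 these became -0.92 and 0.17, while without Blank 3 the first was 0.06. Asb5, first described in growing arteries, was at 111 CPM in SUI 1 and 45.4 and 24.6 in SUI 2 and 3, beside 40.7 to 75.4 in blank and 43.8 to 48.6 after stimulation. Asb4, known from vessels, was at 6.70, 3.93 and 1.48 CPM in SUI and these covered the stimulated libraries and overlapped blank.

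The second comparison, stimulated over SUI, asks what the stimulation procedure, with its probe, handling and current, added to the model. It uses the same SUI libraries as the first, so each SUI value enters both. By edgeR 0 of 50 members passed an adjusted p of 0.05, beside 0.0123% of all genes, and 2 of 50 (Klhl29 and Asb18, both higher) had an unadjusted p under 0.05, beside 8.00%. DESeq2 and voom with sample weights each called 1 member, Klhl29, beside 208 and 48 of all 16256 genes tested. With these tools 4 and 9 members had an unadjusted p under 0.05, beside 10.4% and 18.4% of all genes. Stimulated libraries lay above all SUI libraries for 7 members (9.52% of all genes) and below for 3 (9.28%). Of the 7, Klhl29 and Asb18 stayed apart by FPKM and by library totals, and so did the 3 lower ones, Klhl18, Klhl22 and Klhl25. On those scales the whole table shifts downward in this comparison, with 5.39% and 5.81% of all genes apart in the higher direction and 15.9% and 14.4% in the lower.

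Klhl29 (chr6:28086489-28390647, minus strand), a kelch protein of little-known function, had the smallest p of all members. It was at 1.80, 2.60 and 2.38 CPM in blank, 1.34, 1.67 and 1.95 in SUI and 3.93, 4.03 and 4.76 after stimulation. The 3 stimulated libraries lay above the other 6, on all 3 scales. In edgeR the log2 fold change over SUI was 1.36 ± 0.27 (SE, adjusted p = 0.266), with means of 4.24 ± 0.453 and 1.65 ± 0.308 CPM (SD, n = 3). DESeq2 gave 1.34 with an adjusted p of 6.94e-05, and voom with sample weights 1.38 with an adjusted p of 0.0271. Over the alternatives run, the adjusted p for Klhl29 ran from 6.94e-05 to 0.869.

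Leaving out each library in turn kept the Klhl29 log2 fold change between 1.23 and 1.49, and without both Blank 1 and SUI 1 it was 1.23. On the log2(FPKM + 1) scale the difference was 0.30 and on the log2(FPKM + 0.1) scale 0.93, since Klhl29 is below 1 FPKM in every library, at 0.155 to 0.557. Klhl29 was also higher after stimulation than in blank, by 0.90 ± 0.27 on the log2 scale (edgeR adjusted p = 0.898).

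Asb18 came next by p. Its CPM given above placed every stimulated library (10.7 to 15.5) above every SUI library (3.28 to 8.69), on all 3 scales. The edgeR log2 fold change was 1.26 ± 0.38 (SE, adjusted p = 0.486), and it stayed between 0.98 and 1.69 under the alternatives. Klhl33, a muscle-group member of little-known function, was at 79.7, 67.4 and 177 CPM in SUI, 200, 174 and 195 after stimulation and 165, 216 and 108 in blank. SUI 3 overlapped the stimulated libraries by TMM-scaled CPM, whereas by FPKM and by library totals Klhl33, and also Asb16, had every stimulated library above every SUI library. The log2 fold change of Klhl33 over SUI was 0.81 ± 0.38, and 1.37 without SUI 3.

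Another 5 members lay higher after stimulation than in any SUI library: Asb14, Klhl24, Klhl36, Klhl40 and Klhl42. Their log2 fold changes were 0.36 ± 0.19, 0.41 ± 0.22, 0.47 ± 0.35, 0.28 ± 0.31 and 0.53 ± 0.32, and none stayed apart by FPKM or by library totals. The Klhl24 value was 0.23 without SUI 2, and the Klhl36 value 0.30 without SUI 1. Klhl40 (chr8:121441287-121446800) was at 96.1, 97.6 and 95.2 CPM in SUI and 127, 107 and 116 after stimulation. The blank libraries, at 51, 89.8 and 139 CPM, covered both, with Blank 1 the lowest of all 9.

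The 3 members that lay lower after stimulation were Klhl18, Klhl22 and Klhl25. Klhl22 was at 65.9, 43.2 and 43.5 CPM in SUI and 39.7, 27.4 and 41.6 after stimulation, with 19.6, 45.9 and 49.5 in blank. Stimulated libraries were at 12 to 15.5 CPM for Klhl18 and 3.40 to 4.17 for Klhl25, within the blank range of both. Log2 fold changes over SUI were -0.37 ± 0.20 for Klhl18, -0.49 ± 0.35 for Klhl22 and -0.55 ± 0.46 for Klhl25. The Klhl22 value was -0.25 without SUI 1.

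Asb2 was at 695, 274 and 519 CPM after stimulation, 501, 947 and 744 in SUI and 475, 727 and 731 in blank. Stimulated replicate 2 was the lowest of all 9 libraries, and the groups overlapped by TMM-scaled CPM. The log2 fold change over SUI was -0.56 ± 0.37 and over blank -0.38 ± 0.37, and without stimulated replicate 2 these were -0.27 and -0.08. By FPKM and by library totals the stimulated libraries lay below all SUI libraries for Asb2, Asb6, Asb8 and Klhl26 as well as the 3 members named above, 7 of 50 in all, beside 15.9% and 14.4% of all genes on these scales.

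Over all members, 32 of 50 had a higher and 18 a lower mean after stimulation, beside 8557 higher of 16256 genes tested. The median log2 fold change of the members was 0.08 against 0.02 for all genes, and -0.04 against -0.11 with library totals. On the filtered log2(FPKM + 1) and log2(FPKM + 0.1) scales the member median was 0.002 and -0.0003, against -0.07 and -0.12 for all genes. In the muscle group 12 of 18 were higher, with a median of 0.27, and 0.14 with library totals. The other 32 members had a median of 0.04. Skeletal muscle markers had 9 of 9 positive log2 fold changes in this comparison, with a median of 0.16, and their part in the muscle-group median was not tested. Fibroblast markers, 5 of 5 positive, summed to 466 to 845 CPM in SUI, 879 to 3052 after stimulation and 1180 to 1471 in blank.

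**Figure D4:**
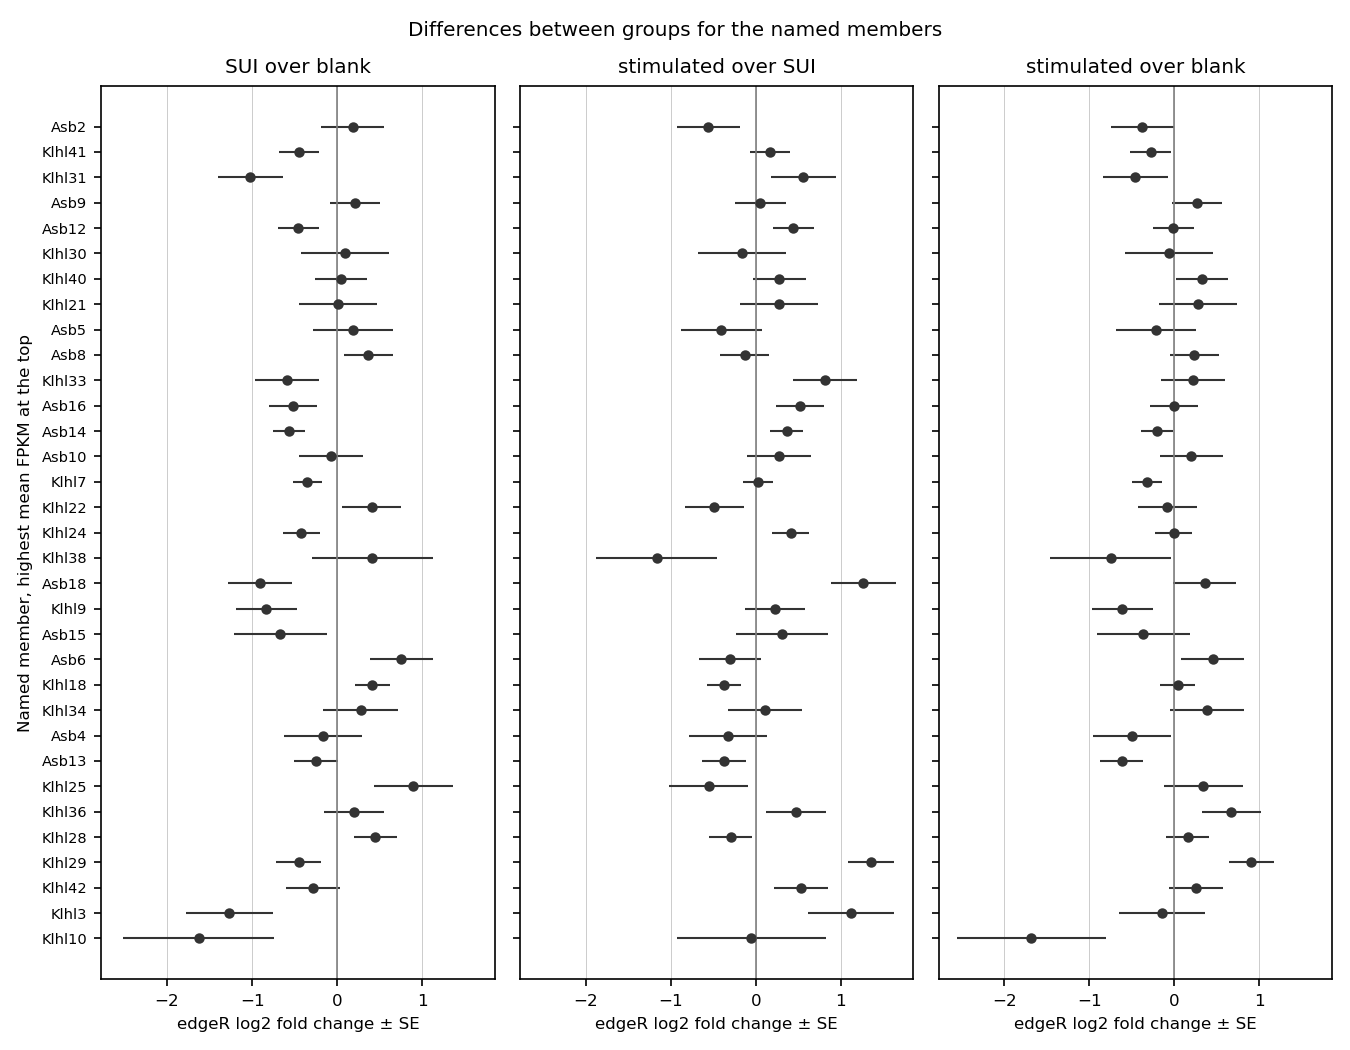
Log2 fold change with its SE from edgeR (x axis) for the 33 members named by rule, ordered by mean FPKM, in the 3 comparisons. Klhl29 lies farthest right in the comparison of stimulated over SUI at 1.36, and none of the points passed the adjusted threshold.

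Asb14 and Klhl24 had all 3 SUI libraries below the other 6, a pattern of 3.15% of all genes, and Klhl18 and Klhl25 had all 3 above, a pattern of 3.46%. That makes 2 of 50 members each way. Because both comparisons share the SUI libraries, opposite signs in them are not separate observations.

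The third comparison, stimulated over blank, asks how far stimulated muscle lay from untouched muscle. By edgeR 0 of 50 members passed an adjusted p of 0.05, beside 0.00615% of all genes. DESeq2 and voom with sample weights called 0 too, beside 21 and 1 of all 16256 genes tested. With these tools 3 and 5 members had an unadjusted p under 0.05, beside 5.90% and 10.1% of all genes. By edgeR 2 of 50 (Klhl29 higher and Asb13 lower) had an unadjusted p under 0.05, beside 3.77%. Stimulated libraries lay above all blank libraries for 2 members, Klhl29 and Klhl36 (7.90% of all genes), and below for 5, Asb4, Asb13, Klhl7, Klhl10 and Klhl41 (4.72%). Of these, Klhl29, Asb13 and Klhl10 stayed apart on all 3 scales, Klhl10 at only 0.0701 to 0.107 CPM after stimulation. By FPKM 2 members lay above and 3 below, beside 4.88% and 6.04% of all genes. By library totals 2 members lay above and 4 below, beside 4.68% and 6.23% of all genes.

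Asb13, which targets the transcription factor Snai2, was at 9.19, 8.19 and 7.71 CPM after stimulation, 16.8, 10.3 and 11.5 in blank and 13.8, 8.41 and 10.2 in SUI. Its log2 fold change over blank was -0.62 ± 0.25, and -0.40 without Blank 1. Klhl41 was at 968, 833 and 928 CPM after stimulation against 1019, 1006 and 1291 in blank, a log2 fold change of -0.28 ± 0.24. SUI overlapped both, at 656, 1037 and 733 CPM. Klhl36 was at 2.92, 4.07 and 3.25 CPM after stimulation and 1.22, 2.72 and 2.46 in blank, with Blank 1 the lowest of all 9 libraries and a log2 fold change of 0.67 ± 0.35 that was 0.38 without Blank 1. By FPKM and by library totals Klhl36 overlapped between these groups.

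**Figure D5:**
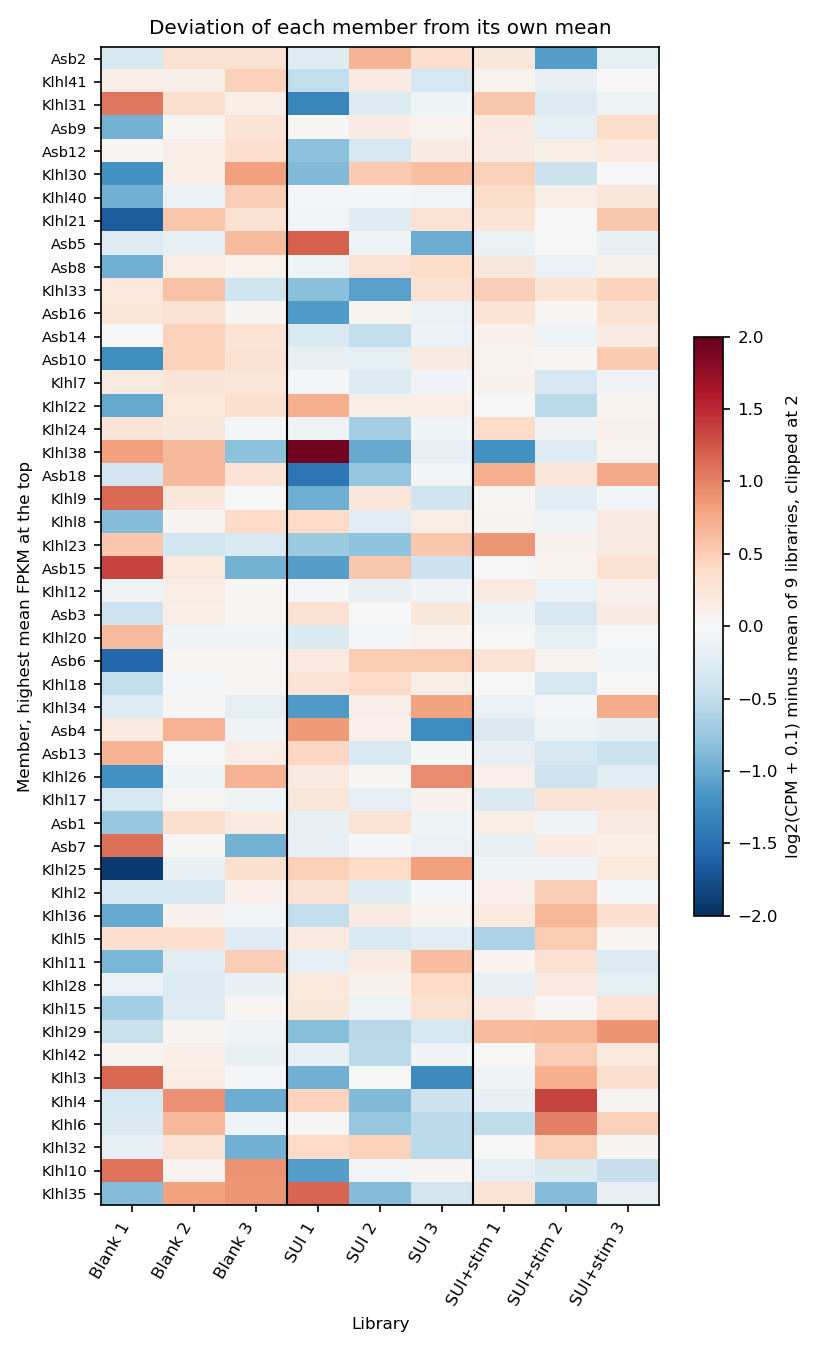
Deviation of each of the 50 tested members (rows, ordered by mean FPKM) from its own mean over the 9 libraries (columns, by group), in log2(CPM + 0.1), with colour clipped at 2. Klhl29 is above its mean in the 3 stimulated libraries, and Blank 1 is the lowest library for 20 members.

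The spread between libraries of 1 group was of the size of most differences. The median within-group SD of log2 CPM was 0.50 over the 50 members and 0.44 over all genes. Klhl12, which acts on the coat protein Sec31a, was among the steadiest, at 16.0 to 20.2 CPM over all 9 libraries. Asb15, linked to protein turnover in cultured muscle cells, was among the most variable of the muscle group, at 51.3, 23.3 and 10.3 CPM in blank, 9.30, 29.2 and 14.8 in SUI and 20.2, 21.0 and 24.7 after stimulation. The stimulated libraries were the closest to each other for Asb15, and without Blank 1 its log2 fold change in SUI over blank turned from -0.67 to 0.09.

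Likeness to Klhl29 was described by Pearson's r of log2 CPM over the 9 libraries, which differ in depth and in group. Among the 49 other members the closest were Asb18 (r = 0.864), Klhl33 (0.686), Klhl36 (0.675), Klhl42 (0.674) and Asb12 (0.663). For Asb18 Spearman's rho was 0.90, and r was 0.782 without the 2 libraries farthest from the Klhl29 median, SUI 1 and stimulated replicate 3. Among 11223 other genes with a mean of at least 1 CPM the closest were Cox5b (0.971), a subunit of cytochrome oxidase, Vstm4 (0.955), Myh13 (0.951), the fast myosin of eye muscles, E2f2 (0.950) and Pitpnm2 (0.947). Cox5b was at 142 to 174 CPM in blank, 128 to 162 in SUI and 205 to 216 after stimulation, and Myh13 at 171 to 331, 147 to 256 and 491 to 691. Klhl29 was chosen for its p in stimulated over SUI, and these genes for their likeness to it. Their higher level after stimulation therefore follows from the choice and is no separate observation.

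The ligase parts that the adaptors dock to gave no calls. With edgeR 0 of the 7 core subunits (Cul2, Cul3, Cul5, Rbx1, Rnf7, Elob and Eloc) passed in any of the 3 comparisons, and 0 had an unadjusted p under 0.05. DESeq2 and voom called 0 of them too. Per length, Elob was the highest at a mean of 66.1 FPKM, followed by Rnf7 at 36.7, Cul3 at 25.6, Eloc at 12.8, Cul2 at 10.9, Cul5 at 10.0 and Rbx1 at 3.91. Cul3 was at 137 to 249 CPM in blank, 141 to 159 in SUI and 95.5 to 150 after stimulation, and Cul5 at 28.3 to 66.6, 28.0 to 38.9 and 22.6 to 40.6, with Blank 1 the highest library for both. Log2 fold changes in the first 2 comparisons were -0.24 ± 0.28 and -0.26 ± 0.28 for Cul3 and -0.35 ± 0.33 and -0.14 ± 0.33 for Cul5.

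Enzymes of neddylation and cullin exchange, which switch cullins on and swap their adaptors, had 0 of 17 called by edgeR, DESeq2 or voom in each comparison, with 0 at an unadjusted edgeR p under 0.05. Their median log2 fold changes were -0.07 in SUI over blank, -0.07 in stimulated over SUI and -0.14 in stimulated over blank. Cand2, the muscle form of the exchange factor, was at 83.0, 145 and 161 CPM in blank, 89.7, 138 and 130 in SUI and 168, 135 and 163 after stimulation. Cand2 was lowest in Blank 1 and SUI 1. The 10 subunits of the COP9 signalosome, which removes Nedd8 from cullins, likewise had 0 called by the 3 tools, with medians of -0.03, -0.07 and -0.01.

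Other BTB adaptors outside the 53 members had 0 of 20 called by edgeR, with 2, 1 and 0 at an unadjusted p under 0.05 in the 3 comparisons. Kbtbd12, a muscle kelch protein, was at 54.7, 50.1 and 57.1 CPM in blank, 37.7, 37.1 and 39.4 in SUI and 56.1, 39.0 and 54.8 after stimulation. Its SUI and blank libraries did not overlap, and the log2 fold change was -0.50 ± 0.19. Kbtbd8, an adaptor of neural crest development, was at 1.94, 2.54 and 2.22 CPM in SUI against 1.51, 0.922 and 1.33 in blank and 1.10, 0.771 and 0.989 after stimulation. DESeq2 called Kbtbd8 lower in stimulated over SUI, where edgeR gave -1.23 ± 0.31.

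Other SOCS-box adaptors had 0 of 16 called by edgeR, with 2, 3 and 1 at an unadjusted p under 0.05. The largest differences were those of Cish and Socs2, feedback inhibitors of cytokine and growth hormone signalling that use the same elongin and Cul5 docking as Asb proteins. Cish was at 35.7, 14.5 and 15.3 CPM in blank, 0.974, 3.75 and 1.34 in SUI and 14.1, 14.9 and 19.8 after stimulation. Socs2 was at 5.49 to 13.5 CPM in blank, 1.73 to 3.31 in SUI and 5.00 to 9.97 after stimulation. Both had every SUI library below the other 6. Log2 fold changes in edgeR were -3.43 ± 0.56 (adjusted p = 0.2) and 3.01 ± 0.55 (adjusted p = 0.225) for Cish, and DESeq2 called both genes in both comparisons with SUI. Voom with sample weights called 0 of this list in SUI over blank and 1, Cish, in stimulated over SUI.

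Of 20 substrates and partners reported for these adaptors, 19 had a row, and edgeR, DESeq2 and voom called 0 in each comparison, with 3, 0 and 1 at an unadjusted edgeR p under 0.05. Acly, a substrate of Klhl25, was at 12.1, 13.9 and 19.4 CPM in blank, 13.8, 27 and 40.6 in SUI and 20.4, 17.7 and 21.0 after stimulation, and its log2 fold change in SUI over blank was 0.84 ± 0.35. Lmod3, a thin-filament protein held stable by Klhl40, was at 816, 241 and 200 CPM in blank, 98.5, 203 and 174 in SUI and 225, 182 and 215 after stimulation. Blank 1 was far above the rest for Lmod3. The insulin receptor substrate Irs1 was at 105, 36.0 and 24.8 CPM in blank, 26.3, 14.6 and 16.1 in SUI and 34.4, 44.6 and 31.2 after stimulation, again highest in Blank 1.

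Atrophy ligases of other families were set beside the adaptors. By edgeR 0 of 9 were called in each comparison, with 3, 1 and 0 at an unadjusted p under 0.05, and DESeq2 and voom each called Fbxo32 in stimulated over SUI. Their median log2 fold change was 0.52 in SUI over blank and -0.53 in stimulated over SUI, against -0.12 and 0.27 for the muscle group of adaptors. Of the 9 ligases, 6 had a positive value in SUI over blank and 1 in stimulated over SUI. Fbxo32 had 2.21 ± 0.69 and -3.67 ± 0.73, while Fbxo40 went the other way at -0.43 ± 0.23 and 0.21 ± 0.23. SUI 1 was the highest of all libraries for Fbxo32, Trim63, Fbxo30 and Fbxo31, and its part in the ligase medians was not tested. The muscle-group median in SUI over blank was 0.04 without Blank 2. These medians describe lists of 9 and 18 genes, and no test of the difference between them was made.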

How the data were processed

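RNA from pubococcygeus muscle was sequenced in 9 libraries. Reads were processed by the authors; tools listed in the submitters' processing notes are Bowtie2, RSEM 1.3.1 and DESeq2 1.4.5, with the build mRatBN7.2. Whether counting used strand is not stated. The deposited tables hold RSEM expected counts and, per the file headers, FPKM per gene; the authors' expected counts were rounded to whole numbers. Rows of 1 symbol were kept by mean count. Genes were filtered with filterByExpr (16256 of 30518 rows kept), scaled by TMM and fitted over all 9 libraries with edgeR 4.0.16 (quasi-likelihood, robust; R 4.3.3), with Benjamini-Hochberg adjustment at 0.05. CPM use TMM-adjusted totals, and the SE is the log2 fold change divided by the square root of F. The code was tested on simulated data. Alternatives used DESeq2 1.42.0, limma 3.58.1 (voom, and log2(FPKM + 1) or log2(FPKM + 0.1)), other scalings and filters, a replicate block and left-out libraries. Promoters are RefSeq's (GRCr8).

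Genes named were the muscle group, the 10 members highest by FPKM, the 6 smallest p of each comparison, members whose groups did not overlap with a mean count of at least 100, and up to 4 genes of each pathway list. Klhl6, Klhl12, Klhl26 and Klhl35 lie outside this rule and were named after their values were seen. The members and lists were chosen with earlier results of these data known. Each library is a separate sample by its labels, so the p-values reflect how far these libraries vary, which may be technical.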

Additional observations from a re-analysis of the deposited data

Results flagged for a closer look

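Asb9 and Asb3 each had a second row that the comparisons did not use, and both rows held counts. The second Asb9 row reached 72 counts in its highest library, and the second Asb3 row reached 60. The rows kept for these symbols had the higher mean count.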

How the results depend on the processing

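Counts of called genes over the whole table depended on the tool. In SUI over blank edgeR called 0 genes and DESeq2 176; in stimulated over SUI edgeR called 2, DESeq2 208 and voom with sample weights 48; in stimulated over blank edgeR called 1 and DESeq2 21. Among the members, DESeq2 and voom each called 1 in stimulated over SUI, Klhl29, and the other alternatives called 0. In stimulated over SUI, library totals gave 1 gene, the fit to the 6 libraries compared 0, log2(FPKM + 1) and log2(FPKM + 0.1) 0 each, and log2(FPKM + 1) without a filter 1. In stimulated over blank, the 6 libraries and log2(FPKM + 1) gave 0 genes each. Leaving out Blank 1 and SUI 1 together, an alternative chosen after seeing the data, gave 0 genes in both comparisons with stimulation.

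Leaving out each library in turn gave 0 to 1 genes in SUI over blank (1 without stimulated replicate 2), 0 to 3 in stimulated over SUI and 0 to 1 in stimulated over blank, with 0 members throughout. In stimulated over SUI the count was 0 without Blank 2, SUI 1, SUI 3, stimulated replicate 2 or stimulated replicate 3. It was 1 without Blank 1 or SUI 2. In stimulated over blank it remained 1 without Blank 3 or SUI 2 and was 0 without any other library. The cause of these differences was not tested. A fit with the replicate number as a block called 0 genes in SUI over blank, 1 in stimulated over SUI and 0 in stimulated over blank, with 0 members. Correlations of deviations between libraries with the same number ran from -0.22 to 0.11, and 2 of 9 libraries correlated best with their own number, so the numbers were not taken as pairs.

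For the 33 named members, 1968 of 2070 recomputed log2 fold changes lay within 1 SE of the reported value and 143 that were not called had the opposite sign. None of the 13 reported values over 2 SE changed sign under any alternative run. Precision was limited by 3 libraries a group, with 50833480 counts in the shallowest.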

Other observations

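Asb and Klhl members were also taken apart by family. In stimulated over SUI, 9 of 16 tested Asb members and 23 of 34 Klhl members had a positive log2 fold change, with medians of 0.05 and 0.13, and 0 of either were called by edgeR. In SUI over blank the medians were -0.12 for Asb and -0.06 for Klhl, and in stimulated over blank -0.02 and 0.13.

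Other cell types were followed by marker lists. Leukocyte markers summed to 30.3 to 38.3 CPM in blank, 12.1 to 30.7 in SUI and 7.91 to 64.4 after stimulation, and epithelial markers to 0.759 to 1.39 CPM over all 9 libraries. Adipocyte markers ranged from 3.99 to 59.4 CPM, both ends of the range among the stimulated libraries.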
